A study of Mus musculus with 16 samples.

Results

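The plasminogen activator system was followed through 6 genes, Serpinb2, Serpine2, Serpini1, Plat, Plau and Plaur, out of 55385 genes counted in 16 libraries of primary mouse hippocampal cultures. Serpinb2 was chosen by its fold change after bicuculline in Control-shRNA cultures, which is among the largest increases there, and the other 5 genes were taken with it as activators, inhibitors and a receptor of the same system. The cultures came from newborn C57Bl/6N mice and were infected with a recombinant adeno-associated virus that carries an shRNA and a GFP cassette under the chicken beta-actin promoter. The shRNA was either Control-shRNA or Dnmt3a1-shRNA, which is directed against the long isoform of the DNA methyltransferase Dnmt3a. Each was studied at baseline and after 4 h of bicuculline, a blocker of GABA-A receptors that raises network activity, with 4 libraries from independent neuronal preparations in each of the 4 groups. The control groups therefore also carry virus and shRNA. These are bulk cultures, so that fewer cells of a type and less RNA per cell cannot be told apart.

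Tissue-type plasminogen activator (Plat) and urokinase (Plau) are secreted serine proteases that cut plasminogen into plasmin, a protease that degrades matrix and processes growth factors. Plaur is the cell-surface receptor that holds urokinase. Serpins trap such proteases in a covalent complex. Serpinb2, plasminogen activator inhibitor 2, is largely intracellular and inhibits urokinase and tissue-type activator, Serpine2 (protease nexin-1) inhibits thrombin and both activators, and Serpini1 (neuroserpin) is a neuronal inhibitor of Plat. In the hippocampus, Plat is known as an activity-induced gene with roles in synaptic plasticity.

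All 16 libraries held 28912697 to 29586355 estimated counts, so that depth differed little. Dnmt3a, the target of the knockdown, had a mean of 312 ± 13.8 CPM (counts scaled to a common library size; SD, n = 4) in Control-shRNA baseline and 44.5 ± 3.66 in Dnmt3a1-shRNA baseline, and 327 ± 11.8 and 45.3 ± 1.72 with bicuculline. The summed level of 5 neuronal markers (Rbfox3, Snap25, Syt1, Tubb3, Map2) was 4614 to 6190 CPM. That of 5 astrocyte markers was 211 to 572 CPM, that of 6 oligodendrocyte lineage markers 38.7 to 65.1 CPM, that of 7 markers of fibroblasts and vessels 47.5 to 111 CPM, and that of 6 microglial markers 1.89 to 4.91 CPM.

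Serpinb2 lies on the plus strand at chr1:107511423-107535478 of GRCm38 (gene ENSMUSG00000062345.10). RefSeq promoter sequence on GRCm38.p6, 250 bases before to 50 bases after each annotated start, was found for 4 of the 6 genes (Serpinb2, Serpine2, Serpini1 and Plaur). Motifs known from activity-regulated and basal promoters were searched on both strands. The cAMP response element TGACGTCA occurs in 1.79% of 32851 mouse promoters of this length, its core TGACG (which also lies within the full element) in 20.8%, the AP-1 site TGANTCA in 7.81% and the TATA box TATAAA in 13.6%. The matches of Serpinb2 and Plaur are printed 5′ to 3′ with up to 11 flanking bases on each side, and capitals mark the motif. They are shown because Serpinb2 is the gene with the largest change of the 6, and Plaur the only other of these genes with a match.
Serpinb2 AP-1, chr1:107511318-107511346, plus strand: gagtaaaatgtTGAATCAtacaaagaata
Serpinb2 TATA box, chr1:107511383-107511410, plus strand: gggcagagtctTATAAAaccagtcatta
Plaur AP-1, chr7:24462403-24462431, plus strand: acccctggagcTGACTCActctttagcaa
The first bases of the Serpinb2 motifs lie at -94 and -29 from the more upstream of the annotated starts, and at -181 and -116 from the other. The Plaur motif starts at -69. Neither form of the cAMP response element was found in these windows of the 4 genes, and the windows of Serpine2 and Serpini1 held none of the 4 motifs. The matches describe letters in the sequence and were not tested as binding sites.

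Serpinb2 was close to absent without stimulation and abundant after it. In Control-shRNA baseline the 4 libraries held 0, 0, 7 and 2 estimated counts, or 0, 0, 0.213 and 0.0649 CPM for replicates 1 to 4. A count of 0 allows up to 3 counts, which is 0.0987 and 0.0926 CPM in those libraries and covers counting error only. After 4 h of bicuculline the same group of cultures gave 4263, 461, 844 and 1608 counts, or 159, 16.4, 28.97 and 56.4 CPM. Every stimulated library was above every baseline library, and the stimulated libraries themselves spanned 9.70-fold.

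The mean rose from 0.0695 ± 0.10 to 65.1 ± 64.6 CPM (SD, n = 4), a ratio of 937 and a fitted log2 fold change of 9.75 (SE 1.13). This contrast chose the gene, so no test is given for it or for the other 5 genes in Control-shRNA. The fitted value depends on which baseline library enters, since the baseline rests on 9 counts in all. It was 11.31 without Control-shRNA baseline replicate 3, which held 7 of them, and 8.81 without Control-shRNA bicuculline replicate 1, the highest stimulated library. The annotated span of Serpinb10 overlaps the last 6476 bases of Serpinb2 on the same strand. Reads were assigned to transcripts, and whether the 2 genes share exon sequence was not examined. Serpinb10 was counted at 0 to 4 per library.

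The 8 Dnmt3a1-shRNA libraries lie outside the Control-shRNA contrast. The choice of Serpinb2 named no shRNA, however, and the genes were chosen with earlier results of these data known. The p-values of Serpinb2 below are therefore descriptions and no independent test. In Dnmt3a1-shRNA the counts were 9, 5, 3 and 1 at baseline, or 0.316, 0.163, 0.0953 and 0.0337 CPM. With bicuculline they were 4594, 1373, 804 and 2953, or 182, 50.8, 28.7 and 109 CPM. Again no stimulated library overlapped a baseline library. The mean rose from 0.152 ± 0.122 to 92.6 ± 68.5 CPM, a ratio of 609 and a log2 fold change of 9.23 (SE 1.03, edgeR quasi-likelihood test, Benjamini-Hochberg adjusted p = 9.69e-07 over 17222 genes). Serpinb2 is among these genes only through its stimulated libraries, and with no filter on low counts the value was 9.22 (edgeR adjusted p = 3.95e-13). Leaving out 1 library moved this value to between 8.67 (without Dnmt3a1-shRNA bicuculline replicate 1) and 9.82 (without Dnmt3a1-shRNA baseline replicate 1).

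**Figure D1:**
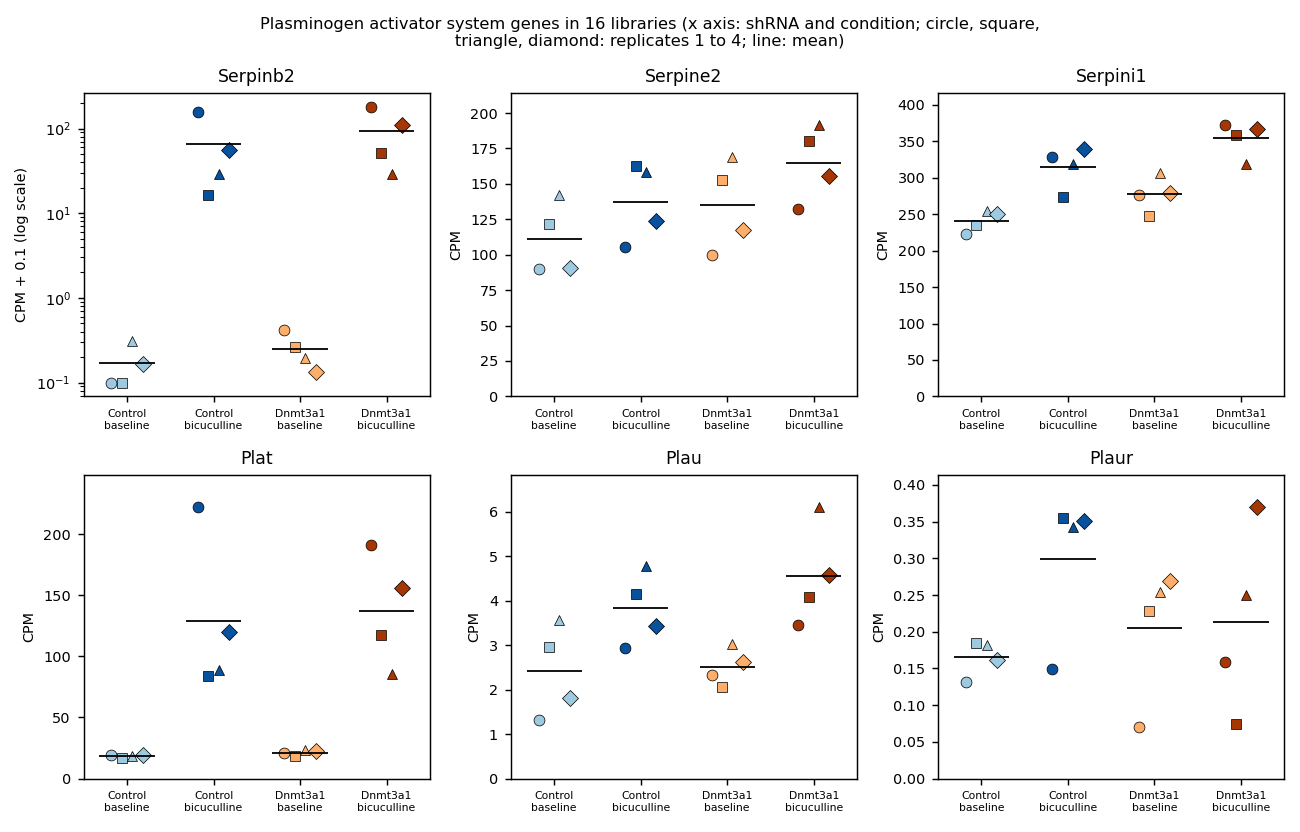
Levels of the 6 genes in all 16 libraries in CPM, with shRNA and condition on the x axis, a symbol for each replicate number and a line at the mean of 4 libraries. The y axis of Serpinb2 is a log scale of CPM + 0.1 and the other axes are linear from 0. Serpinb2 and Plat separated baseline from bicuculline under both shRNAs, Serpine2 overlapped under both, and Plaur stayed below 0.40 CPM.

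Plat (ENSMUSG00000031538.6, chr8:22757727-22782844, plus strand) was the activator with the highest level, and it rose with Serpinb2. Control-shRNA baseline libraries held 19.0, 16.5, 18.7 and 19.3 CPM, and the bicuculline libraries 222, 83.9, 89.1 and 120 CPM. No stimulated library overlapped a baseline library. The mean rose from 18.3 ± 1.28 to 129 ± 64.1 CPM, a ratio of 7.01 and a log2 fold change of 2.81 (SE 0.28).

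In Dnmt3a1-shRNA cultures Plat was at 21.0, 18.4, 23.2 and 22.4 CPM at baseline and at 191, 117, 85.4 and 156 CPM with bicuculline, again without overlap. The log2 fold change was 2.69 (SE 0.28, edgeR adjusted p = 3.87e-07). Its 95% interval ran from 2.15 to 3.23.

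Plau (ENSMUSG00000021822.3, chr14:20836660-20843385, plus strand), the other activator, was expressed far below Plat and changed less. It had 1.32, 2.96, 3.56 and 1.82 CPM in Control-shRNA baseline and 2.94, 4.15, 4.77 and 3.44 CPM with bicuculline. These ranges overlap, though all 4 same-numbered pairs were higher with bicuculline. The log2 fold change was 0.66 (SE 0.26), and with the replicate number as a block it was 0.68, still past the thresholds. It fell outside the thresholds for a call in 15 of 26 alternatives. Among them were 11 of the 16 fits that leave out 1 library, at 0.46 (without Control-shRNA baseline replicate 1) to 0.69. The other 5 were without Dnmt3a1-shRNA bicuculline replicate 1 or 3, Control-shRNA bicuculline replicate 1, or Control-shRNA baseline replicate 2 or 3. In Dnmt3a1-shRNA cultures it had 2.32, 2.06, 3.02 and 2.63 CPM at baseline and 3.44, 4.07, 6.09 and 4.58 CPM with bicuculline. Here every stimulated library was higher, and Plau rose by a log2 fold change of 0.86 (SE 0.26, edgeR adjusted p = 0.0103). On the log2(TPM + 1) scale, where TPM is scaled for transcript length as well as library size, the difference was 0.45 (limma adjusted p = 0.123), and on log2(TPM + 0.1) it was 0.59 (limma adjusted p = 0.129), so that the call did not hold on either. The summed fibroblast and vessel markers moved from 56.9 to 95.6 CPM at baseline to 74.7 to 111 CPM with bicuculline in these cultures. Of the 7 markers, 6 were tested and edgeR, voom with limma and DESeq2 called 0 in this contrast, with 1, 0 and 1 at an unadjusted p under 0.05. Among all 17222 tested genes edgeR gave such a p to 8926. The part of the markers in the Plau result was not tested.

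Plaur (ENSMUSG00000046223.10, chr7:24462484-24475968, plus strand) was near the detection limit in all groups. It had 4 to 6 counts per library in Control-shRNA baseline, 4 to 10 with bicuculline, 2 to 8 in Dnmt3a1-shRNA baseline and 2 to 10 with bicuculline. It was removed by the filter on low counts. In an exact two-sided permutation test of log2(CPM + 0.1) with n = 4 per group, the bicuculline difference in Dnmt3a1-shRNA was 0.0025 (exact permutation p = 1). The knockdown differences were 0.15 at baseline and -0.40 with bicuculline (exact permutation p = 0.686 and 0.371, each 1 after adjustment over 3 tests). The smallest p this design allows is 0.0286 before adjustment.

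The remaining 2 inhibitors were abundant at baseline and changed little in proportion. Serpini1 (ENSMUSG00000027834.15, chr3:75557547-75643495, plus strand) held 222, 235, 255 and 251 CPM in Control-shRNA baseline and 329, 274, 319 and 339 CPM with bicuculline, a log2 fold change of 0.39 (SE 0.08). In Dnmt3a1-shRNA cultures it held 276, 247, 307 and 279 CPM at baseline and 372, 359, 320 and 367 CPM with bicuculline. The groups did not overlap under either shRNA. In Dnmt3a1-shRNA the difference was 0.35 (SE 0.08, edgeR adjusted p = 0.00114), which is past the adjusted p of 0.05 but under the log2 fold threshold of 0.5 that a call needs. On log2(TPM + 1) it was 0.17 (limma adjusted p = 0.192), and with library sizes only in place of TMM scaling it was 0.20 (edgeR adjusted p = 0.0524). The median of all genes in this contrast was -0.01 with TMM, -0.13 on log2(TPM + 1) and -0.16 with library sizes only. The 5 neuronal markers had a median of 0.19 with TMM, with Tubb3 alone called, lower at -1.12. Their part in the Serpini1 value was not tested.

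Serpine2 (ENSMUSG00000026249.10, chr1:79794197-79861180, minus strand) held 89.8, 122, 142 and 90.9 CPM in Control-shRNA baseline and 105, 163, 158 and 123 CPM with bicuculline, a log2 fold change of 0.30 (SE 0.18). It held 99.8, 153, 169 and 118 CPM in Dnmt3a1-shRNA baseline and 132, 180, 191 and 156 CPM with bicuculline. The groups overlapped under both shRNAs. In Dnmt3a1-shRNA the log2 fold change was 0.29 (SE 0.18, 95% interval -0.07 to 0.65, edgeR adjusted p = 0.216). All 4 same-numbered pairs were higher with bicuculline under both shRNAs. In the fit blocked by replicate number it was 0.31 (SE 0.06) in Control-shRNA, and in Dnmt3a1-shRNA it was 0.31 (SE 0.06, edgeR adjusted p = 0.000167), under the fold threshold. The 5 astrocyte markers moved alongside, with sums of 285 to 509 CPM at baseline and 392 to 572 CPM with bicuculline in these cultures. Of the 5, edgeR, voom with limma and DESeq2 called 0, with 0 at an unadjusted p under 0.05, and their part was not tested.

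In CPM the order of the group means was the same for Serpinb2, Serpine2, Serpini1, Plat and Plau, from Control-shRNA baseline through Dnmt3a1-shRNA baseline and Control-shRNA bicuculline to Dnmt3a1-shRNA bicuculline. The middle neighbours of Serpine2 were nearly level, at 135 and 137 CPM. How many of all tested genes have this order was not counted, so it is a description only. In TPM this order held for Serpinb2 and Serpini1 only. There Serpine2 was higher in Dnmt3a1-shRNA baseline than in Control-shRNA bicuculline (142 and 134 TPM), Plat was level between the bicuculline groups (97.7 and 97.8 TPM), and Plau was higher in Control-shRNA than in Dnmt3a1-shRNA at baseline (2.58 and 2.41 TPM). In CPM Plaur had a different order, with its highest mean, 0.299 CPM, in Control-shRNA bicuculline.

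Of the 5 genes tested, 3 (Serpinb2, Plat, Plau) passed both thresholds for bicuculline in Control-shRNA (Plau not under most alternatives), where 21.9% of all tested genes did (10.8% higher and 11.1% lower). This count follows from the choice of Serpinb2 and supports nothing. In Dnmt3a1-shRNA the called genes were again Serpinb2, Plat and Plau, against 25.8% of all tested genes (12.6% higher and 13.2% lower). Every stimulated library was above every baseline library for 4 of the 5 genes (3 in Control-shRNA), and for 18.4% of all tested genes (18.3% in Control-shRNA). Serpinb2 passed the filter on low counts only through its stimulated libraries, so the counts over the tested genes are descriptions.

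**Figure D2:**
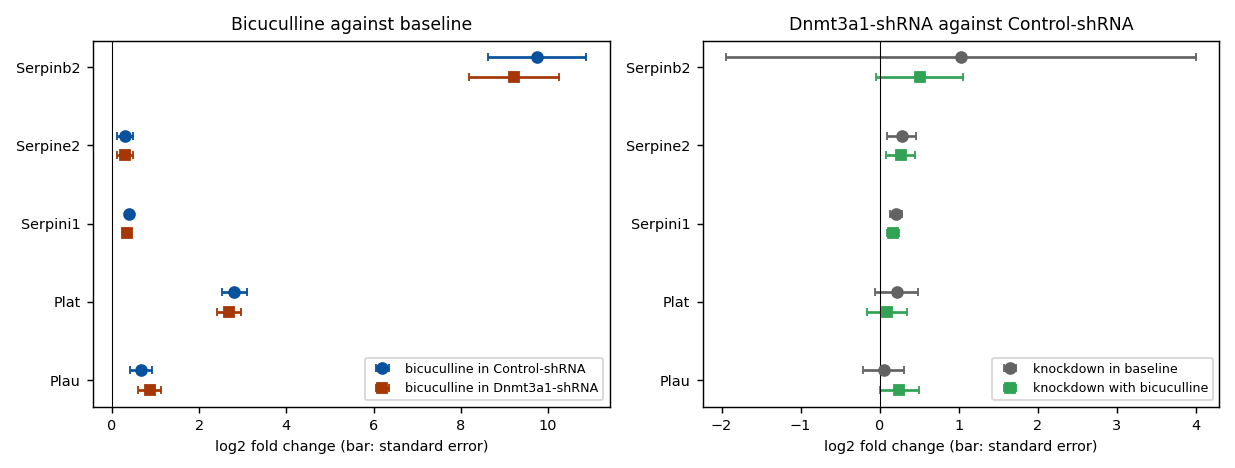
Log2 fold change of the 5 tested genes with its standard error, for bicuculline against baseline (left) and Dnmt3a1-shRNA against Control-shRNA (right). Serpinb2 (9.75 and 9.23) and Plat (2.81 and 2.69) stand far from 0 on the left, and on the right the largest standard error, 2.97, is that of Serpinb2 at baseline.

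Whether the knockdown of Dnmt3a1 altered these genes was asked at baseline and with bicuculline. The control libraries are shared with the contrast that chose Serpinb2. No gene of the 5 was called in either condition, where 5.83% of all tested genes were at baseline (1.76% higher and 4.07% lower) and 5.89% with bicuculline (2% higher and 3.9% lower). The edgeR, voom with limma and DESeq2 tests each called 0 of the 5, and each gave an unadjusted p under 0.05 to 1 of them, Serpini1, in both conditions. Among all 17222 tested genes edgeR gave such a p to 4967 at baseline and 5367 with bicuculline. With the replicate number as a block edgeR called 1 of the 5 with bicuculline, Serpinb2. Its control libraries also chose it, so that this call is a description and no test.

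For Serpinb2 the control libraries of these contrasts also chose it, so its values are given with no test. The knockdown contrast at baseline compared 9 counts with 18 counts over 4 libraries each, and its log2 fold change was 1.03 (SE 2.97). With bicuculline it was 0.51 (SE 0.55, 95% interval -0.57 to 1.59), with the block it was 0.67 (SE 0.20), and 3 of 4 same-numbered libraries were higher in Dnmt3a1-shRNA. Leaving out 1 of the libraries numbered 1, the highest of each group, moved this value most. Without Dnmt3a1-shRNA bicuculline replicate 1 it was -0.048, and without Control-shRNA bicuculline replicate 1 it was 1.45. The pair numbered 1 was at 182 CPM in Dnmt3a1-shRNA and 159 CPM in Control-shRNA. In the same order, number 2 was at 50.8 and 16.4 CPM, number 3 at 28.7 and 28.97 CPM, and number 4 at 109 and 56.4 CPM. The interval includes both 0 and an increase of 1 log2 unit.

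For Plat the knockdown contrast was 0.21 (SE 0.27, edgeR adjusted p = 0.659) at baseline and 0.10 (SE 0.25, 95% interval -0.40 to 0.59, edgeR adjusted p = 0.836) with bicuculline. For Plau it was 0.05 (SE 0.26, edgeR adjusted p = 0.927) and 0.25 (SE 0.25, edgeR adjusted p = 0.537). The sign of the Plau baseline value changed to -0.039 with library sizes only and to -0.044 on both TPM scales.

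The 2 abundant inhibitors had small positive knockdown contrasts. Serpini1 was at 0.21 (SE 0.08, edgeR adjusted p = 0.0849) at baseline and 0.17 (SE 0.08, edgeR adjusted p = 0.152) with bicuculline. Serpine2 was at 0.28 (SE 0.18, edgeR adjusted p = 0.352) and 0.26 (SE 0.18, edgeR adjusted p = 0.355). All 4 same-numbered pairs were higher in Dnmt3a1-shRNA for both genes in both conditions. At baseline the fit with the replicate number as a block gave Serpine2 0.27 (SE 0.06, edgeR adjusted p = 0.00154) and Serpini1 0.20 (SE 0.07, edgeR adjusted p = 0.0308). Both were still under the fold threshold, and whether the numbers pair the libraries is not settled. The 5 astrocyte markers had a median knockdown difference of 0.41 at baseline and 0.43 with bicuculline, with S100b called in both, beside 0.01 and -0.01 for all tested genes. The 5 neuronal markers had medians of 0.09 and 0.06, with Tubb3 called higher at baseline (0.51, edgeR adjusted p = 0.000952) and none called with bicuculline. The part of either marker set in the Serpine2 and Serpini1 values was not tested.

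The difference between the bicuculline responses of the 2 shRNAs was tested as an interaction. It was -0.01 for Serpine2 (SE 0.26), -0.04 for Serpini1 (SE 0.11), -0.12 for Plat (SE 0.37) and 0.20 for Plau (SE 0.36), each with an edgeR adjusted p of 1. Of Serpinb2 only the value is given, -0.52 (SE 2.93), since its control response was used to choose it. Across all genes edgeR called 0 (0% of 17222), with 852 at an unadjusted p under 0.05, voom with limma called 0, and DESeq2 called 17, none of them among the 5. The 95% interval of Plat ran from -0.85 to 0.61.

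Compared per transcript length, in TPM, the balance of the named inhibitors and activators moved with stimulation. At Control-shRNA baseline Serpine2 averaged 125 TPM, Serpini1 129 TPM, Plat 16.2 TPM, Plau 2.58 TPM, Plaur 0.306 TPM and Serpinb2 0.0840 TPM. With bicuculline Plat averaged 97.8 TPM and Serpinb2 63.0 TPM, while Serpine2 averaged 134 TPM and Serpini1 147 TPM. Serpinb2 thus went from the lowest of the 6 mean levels to above Plau and Plaur, and it was below Plat in all 4 of these libraries. In Dnmt3a1-shRNA bicuculline it was above Plat in replicate 1 (157 and 129 TPM) and below Plat in replicates 2 to 4.

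The summed TPM of Serpinb2, Serpine2 and Serpini1 was 12.04 to 14.9 times that of Plat and Plau in Control-shRNA baseline libraries and 2.38 to 4.50 times with bicuculline. In Dnmt3a1-shRNA it was 12.5 to 16.7 times and 3.18 to 5.11 times. The ranges of baseline and bicuculline did not overlap. Serpinb2 held at most 0.0837% of this inhibitor TPM in Control-shRNA baseline and 5.40% to 38.2% with bicuculline, and at most 0.140% and 7.88% to 37.6% in Dnmt3a1-shRNA. Plat held 81.8% to 91.9% of the activator TPM in Control-shRNA baseline and 94.4% to 98.6% with bicuculline. These ratios are of transcripts, contain the genes that chose the list, and carry no test.

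**Figure D3:**
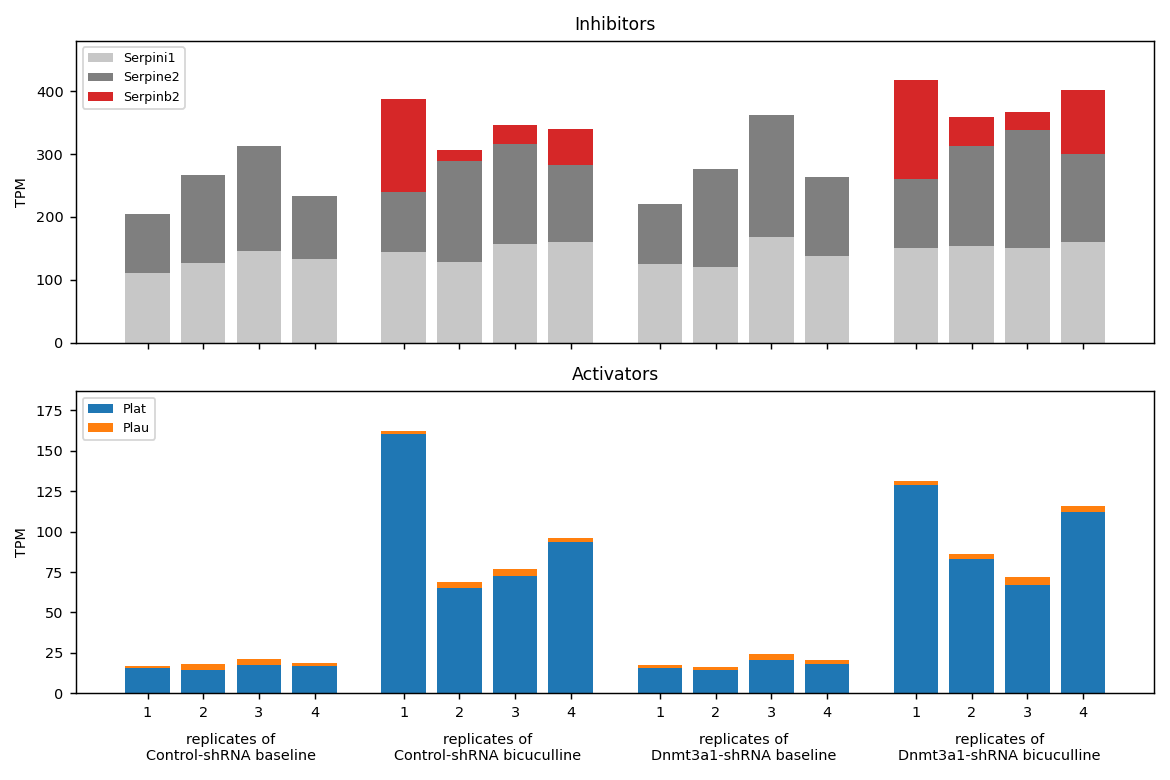
Summed TPM of the inhibitors Serpini1, Serpine2 and Serpinb2 (top) and of the activators Plat and Plau (bottom) in each of the 16 libraries, as stacked bars from 0. Serpinb2 is visible only in the 8 bicuculline libraries, at 16.5 to 157 TPM, and Plat makes up most of each activator bar.

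The stimulated libraries varied in a shared manner. Replicate 1 had the most Serpinb2 and the most Plat under both shRNAs, and the least Serpine2 and Plau. At baseline replicate 1 also had the least Serpine2, at 89.8 CPM in Control-shRNA and 99.8 CPM in Dnmt3a1-shRNA. Its low Serpine2 was thus not particular to stimulation. The least Plau at baseline was in replicate 1 of Control-shRNA (1.32 CPM) and in replicate 2 of Dnmt3a1-shRNA (2.06 CPM). The pooled SD of log2 CPM within the 2 stimulated groups was 1.30 for Serpinb2, which only 2 of 9072 genes of at least 10 CPM exceeded, and 0.58 for Plat, which 24 exceeded. The median of those genes was 0.11. Serpine2 had 0.27, exceeded by 5.92% of the genes, and Serpini1 0.12, exceeded by 44.1%. The immediate early gene Arc had 0.36.

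Over the 8 stimulated libraries, deviations of log2 CPM from the group mean correlated with those of Serpinb2 at Pearson's r of 0.98 for Plat and 0.80 for Serpini1, and at -0.98 for Serpine2 and -0.83 for Plau. The activity-induced genes Arc and Bdnf correlated with Serpinb2 at 0.89 and 0.98. These are descriptions of 8 points from libraries that share scaling and may share preparations. Other library measures differed as well. The mitochondrial share of counts was 5.86% and 6.596% in the stimulated replicates 1 and 3.34% to 5.55% in the other 6, and the TMM factor was 0.928 and 0.871 against 0.932 to 1.002. The part of these in the pattern was not tested.

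**Figure D4:**
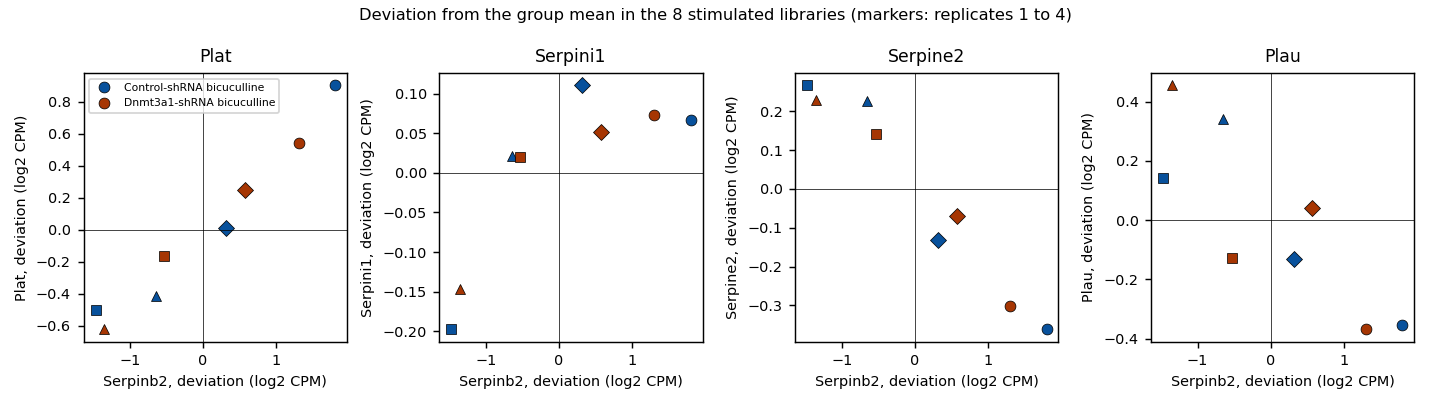
Deviation of log2 CPM from the group mean in the 8 bicuculline libraries, for Plat, Serpini1, Serpine2 and Plau (y axes) against Serpinb2 (x axes), with a symbol for each replicate number and a colour for each shRNA. Plat rises with Serpinb2 (r = 0.98) and Serpine2 falls (r = -0.98), with both replicates 1 at the right end.

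Over all 16 libraries the genes with a log2 CPM pattern most like Serpinb2, among 13880 of at least 1 CPM, were Ier5, Heatr5a, Syt4, Trib1 and Lonrf3, each with a Pearson's r of 0.99. Ier5 is an immediate early response gene, Syt4 a synaptotagmin of vesicles and Trib1 a pseudokinase. For Plat they were Fndc9, Ahcyl1 and Ptp4a1, at 0.99 each, and Serpinb2 and Plat correlated at 0.99 with each other. Serpine2 was most like Cpq (0.99), Eda2r (0.99) and the astrocyte water channel Aqp4 (0.98). Serpini1 was most like Tm9sf3, Gpr22 and Ipo5, at 0.95 each, and Plau most like the collagen gene Col1a2 (0.92), Chd7 (0.91) and Myo10 (0.90). The groups set much of these values, which are descriptions over 16 libraries.

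Serpinb2 lies in a cluster of clade B serpins on chromosome 1, and 11 other members of the clade are annotated there. Of these, 2 passed the filter, Serpinb5 with 3 to 15 counts and Serpinb8 with 54 to 191 counts per library. The other 9 had at most 7 counts in any library. Serpinb8 starts 54.5 kb beyond the end of Serpinb2. Of 27 other clade B genes in the genome, 5 were tested (Serpinb1b, Serpinb5, Serpinb6a, Serpinb8 and Serpinb9), and edgeR, voom with limma and DESeq2 called 0 in any of the 5 contrasts. At an unadjusted p under 0.05 each tool gave 1 of them, lower, for bicuculline under each shRNA and 0 in the other contrasts. For bicuculline edgeR gave such a p to 8294 of all 17222 tested genes in Control-shRNA and 8926 in Dnmt3a1-shRNA.

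Beyond the 6 genes, 35 genes of the pathway were listed, of which 26 were tested. Plg, the plasminogen substrate of both activators, had 4 counts in all 16 libraries together, at most 1 in any. Among inhibitors that circulate or act elsewhere, Serpina5 had 0 counts and Serpinf2 had 9 over all libraries.

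Of the 26 tested pathway genes, 3 rose and 1 fell with bicuculline in Control-shRNA, where 10.8% of all tested genes rose and 11.1% fell, with a median log2 fold change of 0.22 beside 0.01 for all tested genes. In Dnmt3a1-shRNA 4 rose and 1 fell, where 12.6% of all tested genes rose and 13.2% fell, with a median of 0.22 beside -0.01 (voom with limma called 3 higher and DESeq2 5). For the interaction edgeR, voom with limma and DESeq2 called 0 of the 26, with 0 at an unadjusted p under 0.05. Among substrates of plasmin or the activators, 2 of 11 rose in Control-shRNA and 3 of 11 in Dnmt3a1-shRNA, beside the same 10.8% and 12.6%. Bdnf, the neurotrophin whose precursor plasmin can cleave, rose by log2 fold changes of 2.53 (SE 0.19, edgeR adjusted p = 8.33e-09) and 2.91 (SE 0.19, edgeR adjusted p = 1.27e-09).

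Hgf, a growth factor activated by proteolysis, rose by 1.28 (SE 0.28, edgeR adjusted p = 0.00140) and 0.90 (SE 0.28, edgeR adjusted p = 0.0131), at a mean of 1.42 CPM. The call in Dnmt3a1-shRNA was lost with library sizes only (0.73, edgeR adjusted p = 0.0502), on log2(TPM + 1) (0.30, limma adjusted p = 0.132) and on log2(TPM + 0.1) (0.64, limma adjusted p = 0.115). Tgfb1, a growth factor released from a latent complex, rose in Dnmt3a1-shRNA by 0.65 (SE 0.24, edgeR adjusted p = 0.0368) and was at 0.25 (SE 0.24, edgeR adjusted p = 0.453) in Control-shRNA, with an interaction of 0.41 (SE 0.34, edgeR adjusted p = 1). The Tgfb1 call was lost with voom and limma (adjusted p = 0.0867) and in 6 of the 16 fits that leave out 1 library, the weakest being without Dnmt3a1-shRNA bicuculline replicate 4 (log2 fold change 0.52, edgeR adjusted p = 0.131). The others were without Dnmt3a1-shRNA bicuculline replicates 1 and 3 and Dnmt3a1-shRNA baseline replicates 1, 2 and 4.

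Among 10 genes of receptors and cell-surface binding, all tested, 1 rose and 1 fell under each shRNA, beside 10.8% and 11.1% of all tested genes in Control-shRNA and 12.6% and 13.2% in Dnmt3a1-shRNA. Mrc2, a collagen receptor that associates with the urokinase receptor, rose by 0.85 (SE 0.18, edgeR adjusted p = 0.00104) and 0.56 (SE 0.18, edgeR adjusted p = 0.0164), and on log2(TPM + 1) the former was 0.33, under the fold threshold. The Mrc2 groups overlapped in Dnmt3a1-shRNA, with stimulated replicate 2 at 2.67 CPM and the highest baseline library at 2.84 CPM. There 3 of 4 same-numbered pairs were higher. Plgrkt, a plasminogen receptor, fell by 0.94 (SE 0.11, edgeR adjusted p = 3.90e-06) and by 0.87 (SE 0.12, edgeR adjusted p = 8.06e-06). Lrp1, the endocytic receptor that clears complexes of protease and serpin, was at -0.06 (SE 0.15, edgeR adjusted p = 0.774) and 0.15 (SE 0.15, edgeR adjusted p = 0.444), and on log2(TPM + 1) the latter was -0.22.

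After the knockdown edgeR called 0 of the 26 higher in either condition (1.76% and 2% of all tested genes were), with 4 at baseline and 6 with bicuculline at an unadjusted p under 0.05. Voom with limma also called 0, and DESeq2 called 0 and 1. At baseline 1 fell, Bdnf (log2 difference -0.74, SE 0.18, edgeR adjusted p = 0.00900), with a median of 0.10 for the list. With bicuculline 1 fell, Klk8, with a median of 0.19. Of all tested genes 4.07% fell at baseline and 3.9% with bicuculline. Klk8, a neuronal serine protease also called neuropsin, is named because the count is small and was chosen after its values were seen. It was at -1.26 (SE 0.32, edgeR adjusted p = 0.0107) with group means of 1.05 and 0.432 CPM. The call was lost on both TPM scales. Bdnf was at -0.36 (SE 0.17, edgeR adjusted p = 0.170) with bicuculline. The contact and thrombin proteases gave 1 tested gene of 5, which edgeR, voom with limma and DESeq2 called in no contrast, with 0 at an unadjusted p under 0.05.

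**Figure D5:**
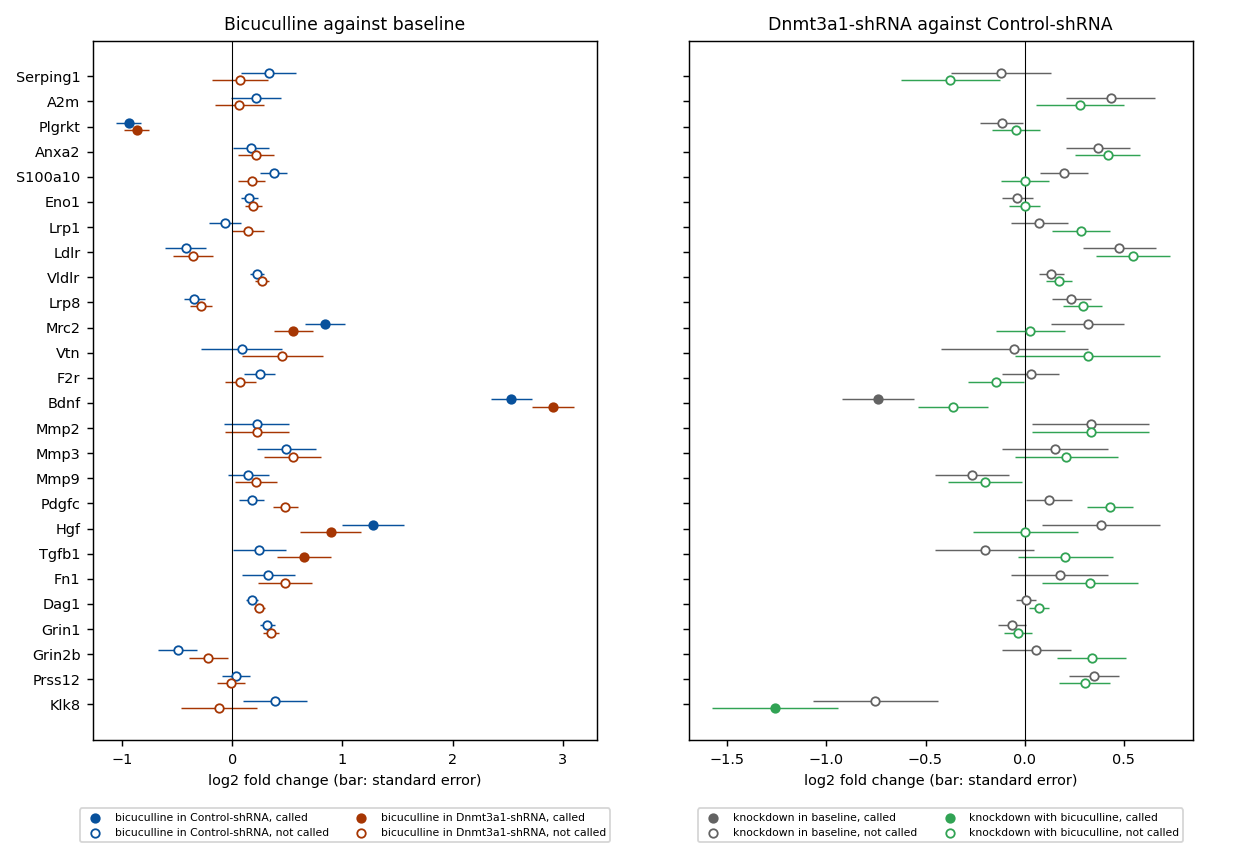
Log2 fold change of the 26 tested pathway genes with its standard error, for bicuculline against baseline (left) and Dnmt3a1-shRNA against Control-shRNA (right), with filled points for called genes. Bdnf, Hgf and Mrc2 are filled on the right of 0 and Plgrkt on the left of 0 under both shRNAs in the left panel, and in the right panel the filled points, both below 0, are Bdnf at baseline and Klk8 with bicuculline.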

How the data were processed

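RNA of 16 libraries was sequenced in read pairs. Per the labels and the study's methods, the authors trimmed the reads with Trim Galore 0.6.4, quantified them with kallisto on GRCm38.p6, and deposited a table per library of 55385 genes with estimated counts, which are not scaled for depth or length, and TPM, which are scaled for both. Without version, 55144 identifiers matched GENCODE gene names (54487 with version).

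Estimated counts were rounded and tested with edgeR 4.0.16 (R 4.3.3) in 1 quasi-likelihood model of the 4 groups, with TMM scaling and edgeR's filter on low counts, which left 17222 genes. Benjamini-Hochberg adjustment covered all 17222. Calls needed an adjusted p below 0.05 together with a log2 fold change beyond 0.5 in either direction (for the interaction, adjusted p alone). CPM use the TMM library sizes and log2 CPM a prior count of 2. The SE printed with edgeR values is the absolute log2 fold change divided by the square root of the quasi-likelihood F. It is thus derived from the test, and 95% intervals are 1.96 of these SE. For Serpinb2, with few baseline counts, it was 2.93 for the interaction beside 1.13 and 1.03 for the 2 bicuculline responses. Values under a few counts rest on counting error, and p-values measure the spread between preparations. The test was checked on simulated counts. Libraries of a group differed by more than sampling noise (chi-square over degrees of freedom 7.88 to 44.5).

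The 6 genes and the lists were chosen with earlier results of these data known. Genes named beyond the 6 are Plg and Lrp1, up to 3 called list genes a direction and contrast with the largest change at a mean of at least 1 CPM, the genes most alike in pattern, the check gene Dnmt3a, and genes named with counts of 5 or fewer. Some pathway genes are not reported here and are left out of the list counts.

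Replicate numbers 1 to 4 recur in every group. Group means were subtracted first. Libraries that share a number then correlated at r of 0.142 to 0.221 between the Control-shRNA groups. Between the baseline groups they correlated at 0.204 to 0.355, and every number was above 0.1 in both. Number 4 correlated higher with a library of another number in both, at 0.238 and 0.216. The labels do not say whether a number marks a shared preparation, so pairing is not established. Libraries that share a number correlated at 0.0631 to 0.337 between the Dnmt3a1-shRNA groups and 0.0667 to 0.388 between the bicuculline groups. Over 9238 genes of at least 10 CPM these values were higher. They were 0.423 to 0.578 between the Control-shRNA groups and 0.549 to 0.716 between the baseline groups. Between the Dnmt3a1-shRNA groups they were 0.0725 to 0.6695, and between the bicuculline groups 0.274 to 0.676. Libraries of other numbers were not compared over these genes.

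Alternatives were voom with limma 3.58.1, DESeq2 1.42.0, its size factors in edgeR, library sizes only, no filter, a minimum of 10 counts per library, limma with log2(TPM + 1) or log2(TPM + 0.1), only the groups compared, a replicate block, no fold threshold and each library left out.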

Additional observations from a re-analysis of the deposited data

Results flagged for a closer look

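In groups of 4 libraries the gap of the highest or lowest library to its neighbour was compared with the range of the group by Dixon's ratio, which chance flags in about 1 of 20 groups. Plaur in Control-shRNA bicuculline was flagged for its lowest library, replicate 1 at 0.149 CPM, with a ratio of 0.943. Arc, an activity-induced gene given beside the members, was flagged in the same group for its highest library, replicate 1 at 1080 CPM, with a ratio of 0.874. Plg was flagged in Control-shRNA baseline, where the highest library had 0.0304 CPM and the ratio was 1, and in Control-shRNA bicuculline, where it had 0.0343 CPM and the ratio was 1. Each of these Plg values is 1 count beside 3 libraries at 0.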

How the results depend on the processing

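Of 976 values of 38 gene results under the alternatives, 911 kept their direction and side of the thresholds, 35 lost a call, 1 gained a call and 29 changed sign. Plat with bicuculline in Dnmt3a1-shRNA kept its call under every alternative, at log2 fold changes of 2.39 to 2.86. Serpinb2 was at 5.91 to 9.82 there, and had no value with at least 10 counts in every library, which removes it because of its low baseline. Plau with bicuculline in Control-shRNA fell outside the thresholds in 15 of 26 alternatives, and Tgfb1 with bicuculline in Dnmt3a1-shRNA in 12 of 26.

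With the replicate number as a block, 1 member was called in knockdown with bicuculline instead of 0. That was Serpinb2, at 0.67 (SE 0.20), which is a description only, since its control libraries also chose it. In this contrast libraries that share a number correlated at 0.0667 to 0.388 over all tested genes and at 0.274 to 0.676 over 9238 genes of at least 10 CPM. The block changed no other member's call. It also put Serpine2 past the adjusted p, though not the fold threshold, for knockdown with bicuculline (0.27, edgeR adjusted p = 0.00155).

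Signs changed only in contrasts that were not called. Leaving out 1 library gave -0.048 to 1.45 for Serpinb2 in knockdown with bicuculline, -2.08 to 0.42 for its interaction, -0.15 to 0.11 for the Serpine2 interaction, -0.10 to 0.014 for the Serpini1 interaction, -0.11 to 0.49 for Plat in knockdown with bicuculline, -0.32 to 0.28 for the Plat interaction, -0.15 to 0.30 for Plau in knockdown at baseline and -0.049 to 0.40 for the Plau interaction. The Serpinb2 interaction was 0.47 on log2(TPM + 1). Plau in knockdown at baseline was -0.039 with library sizes only and -0.044 on log2(TPM + 1) and on log2(TPM + 0.1). Lrp1 with bicuculline in Dnmt3a1-shRNA was -0.22 and -0.23 on the TPM scales. The causes were not tested. Counting error limits Serpinb2 at baseline, Plaur and Plg.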
